A study of Homo sapiens with 16 samples.

Results

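The genes described here are 46 genes listed under the G2/M programme. Most genes of this programme are expressed most strongly between the end of DNA replication and the separation of the daughter cells. When in the cycle each member is expressed was not measured here. They were given as a list of symbols that was drawn up with earlier results of these data known, and each symbol was matched to its Ensembl gene ID in the count tables. All 46 were found among 63677 gene IDs, and all 46 were among the 20280 genes with enough reads to be tested. RNA had been sequenced from UACC62R, a human melanoma line resistant to the BRAF inhibitor vemurafenib, and from UACC62P, the parental line from which it was selected. Both lines were exposed to 10 uM CCG-222740, a small molecule that inhibits transcription driven by the myocardin-related transcription factors. Libraries were made from UACC62R at 0, 2, 6 and 24 h, with 2 libraries at each time, and from UACC62P at 0, 6 and 24 h, with 2 libraries each, and at 2 h with 1 library. UACC62R had been selected over 2 months in 2 uM vemurafenib and, per the labels of its 0 h libraries, was maintained at that dose. No source used here says whether vemurafenib was present in the treated UACC62R cultures. The 0 h libraries are labelled as untreated, carry a different culture description from the treated ones, and stand for both lines in place of a vehicle control, which was not analysed here. Time in the compound therefore cannot be told apart from any other difference between the 0 h cultures and the treated cultures. UACC62R is a single resistant derivative, and nothing in the labels says that replicates came from separate cultures, so that p-values reflect the spread between these libraries, which may be technical.

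Progress from G2 into mitosis is driven by cyclin B bound to the kinase CDK1, and the genes for the machinery of division are transcribed together in G2. In human cells this timing is set by promoter elements called cell cycle genes homology regions (CHR) and by CCAAT boxes, which bind NF-Y. At CHR elements the DREAM complex, built on the MuvB core, represses the genes in resting and G1 cells, and the same core with MYBL2 (B-MYB) and then FOXM1 activates them in S phase and G2. Cells that leave the cycle hold little of these transcripts, so their summed level is widely read as a measure of proliferation, in melanoma as elsewhere.

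Many promoters of the members hold the letters of these elements. RefSeq windows on GRCh38.p14, running from 250 bases before to 50 bases after each gene start, were held for 39 of the 46 members, with 51 promoters because 7 members have more than 1. AURKA, BIRC5, BUB3, FOXM1, TPX2, TTK and UBE2C had no entry. The last 100 bases before the start are printed below for 7 members that recur in the results, 5 with CHR letters near the start, 1 with CCAAT alone (KIF20A) and 1 with neither in this stretch (MYBL2). Each runs 5′ to 3′ on the strand of the gene, and capitals mark TTTGAA, the CHR letters, and CCAAT or its reverse complement ATTGG.
PLK1 (chr16:23678789-23678888, plus strand): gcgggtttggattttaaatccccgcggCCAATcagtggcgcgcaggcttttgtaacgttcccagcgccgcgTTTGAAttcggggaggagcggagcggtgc
CCNB2 (chr15:59105046-59105145, plus strand): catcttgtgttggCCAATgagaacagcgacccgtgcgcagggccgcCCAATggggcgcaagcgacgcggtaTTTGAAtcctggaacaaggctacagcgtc
PRC1 (chr15:90994536-90994635, minus strand): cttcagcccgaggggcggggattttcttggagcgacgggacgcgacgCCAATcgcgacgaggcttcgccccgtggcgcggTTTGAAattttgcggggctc
CDCA8 (chr1:37692416-37692515, plus strand): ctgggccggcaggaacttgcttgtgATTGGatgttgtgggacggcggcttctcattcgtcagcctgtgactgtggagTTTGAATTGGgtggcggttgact
ESPL1 (chr12:53268199-53268298, plus strand): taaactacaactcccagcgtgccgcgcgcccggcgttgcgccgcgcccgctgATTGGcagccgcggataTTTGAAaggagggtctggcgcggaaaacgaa
KIF20A (chr5:138179012-138179111, plus strand): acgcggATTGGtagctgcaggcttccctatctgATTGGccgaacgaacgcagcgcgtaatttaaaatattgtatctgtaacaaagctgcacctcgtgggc
MYBL2 (chr20:43667014-43667113, plus strand): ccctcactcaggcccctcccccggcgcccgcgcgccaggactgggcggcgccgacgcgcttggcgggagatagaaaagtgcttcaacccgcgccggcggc
In CDCA8 the final CCAAT match, on the opposite strand, shares bases with the TTTGAA match.

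TTTGAA was present on either strand in 31 of the 51 member promoters, 60.78%, against 15.16% of all 35116 promoters in the same table and 12.42% of the 22199 promoters of coding genes. CCAAT was present in 37 of 51, 72.55%, against 34.61% of all and 34.69% of coding promoters. Both were present in 25 of 51, 49.02%, against 5.903% of all and 4.969% of coding promoters. An E2F site, searched as TTCCCGC or TTGGCGC on either strand, was present in 10 of 51, 19.61%, against 9.232% of all and 11.5% of coding promoters. The coding share lies inside the exact binomial interval of the members' share, 9.824 to 33.12%, and the share of all promoters lies just below it. Promoters of the same gene can overlap, so the 51 are not independent. By position in the member promoters, 18 of the 42 TTTGAA matches began within 40 bases before the start, in 16 genes, and 15 of the 18 ran on the strand of the gene. For CCAAT, 48 of 76 matches began between 120 and 40 bases before the start, in 28 genes, and 23 of the 48 ran on the strand of the gene. Both position ranges were chosen after the positions were seen, and a match is a description of letters and not of binding. Positions were not counted over all promoters, so these places cannot be called particular to the members. Where windows of the same gene overlap, as for PTTG1, the same site is counted more than once.

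**Figure D1:**
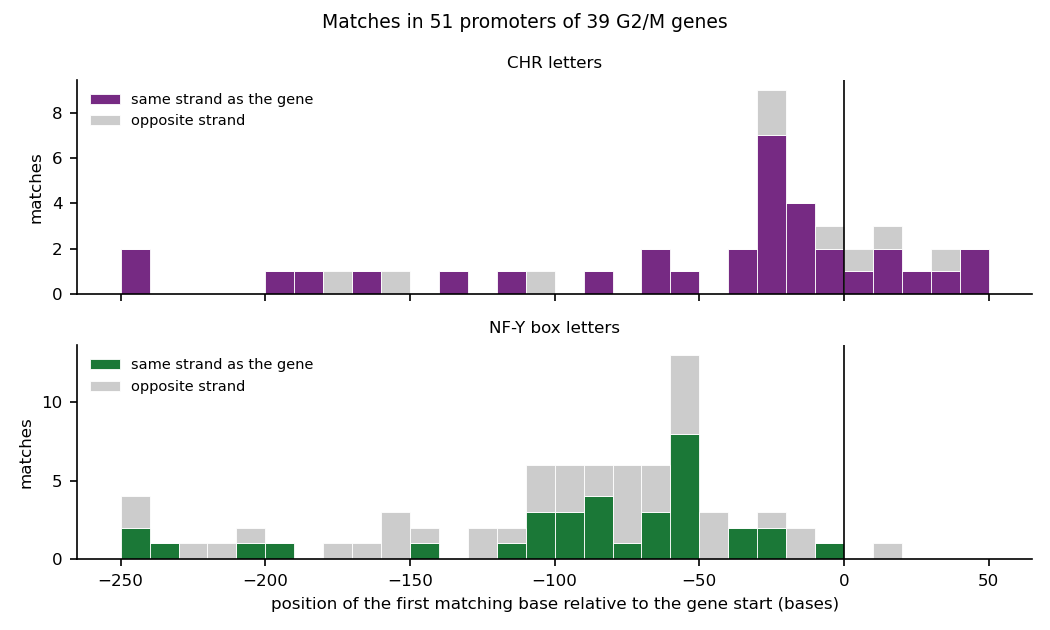
Number of matches to the CHR letters (upper panel) and to the NF-Y box letters (lower panel) in 10-base steps along the promoter windows of 39 G2/M genes, by distance in bases from the gene start. Colour marks matches on the strand of the gene and grey those on the opposite strand; 18 of 42 CHR matches lie within 40 bases before the start, and 48 of 76 NF-Y box matches lie 120 to 40 bases before it.

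Libraries held 25.9 to 33.3 M reads in genes, and the lowest count of any member in any library was 256 reads, for CDC25C. The melanocyte markers SOX10, MITF, MLANA, PMEL, TYR, DCT and TYRP1 summed to 70.0 to 81.3 CPM (read counts divided by the library size, which was scaled by the trimmed mean of M values, TMM, and put on the usual per-megaread scale) in the 8 UACC62R libraries and to 1137 to 1451 CPM in the 7 UACC62P libraries. In UACC62R, 5 of the 7 (MLANA, PMEL, TYR, DCT and TYRP1) were under 1 CPM in every library. In UACC62P, MLANA was at 89.0 to 132 CPM, TYR at 124 CPM or more and DCT at 6.85 to 10.3 CPM, while PMEL (1.26 to 3.40 CPM) and TYRP1 (0.273 to 1.19 CPM) were low there too. The 12 markers of epithelial, endothelial and blood cells summed to 1.47 to 2.50 CPM in UACC62R and 0.929 to 2.35 CPM in UACC62P. One library, labelled as the first UACC62P replicate at 2 h, was left out because its profile is like that of UACC62R. Among the 12 members that differed between the lines at 0 h, it lay nearer to UACC62R for 10, which only describes a library left out for that likeness. The summed level of the 46 members in it, 5863 CPM, was close to the 5934 CPM of UACC62P 2 h replicate 2, so the sum does not tell the lines apart.

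The summed level of the 46 genes was lower after 24 h in CCG-222740 in both lines. Values of paired libraries are given for replicate 1 and then replicate 2. In UACC62R the summed level of the members was 5751 and 7500 CPM at 0 h, 5818 and 7362 CPM at 2 h, 5453 and 6815 CPM at 6 h, and 3461 and 5174 CPM at 24 h. In UACC62P the sum was 5616 and 5890 CPM at 0 h, 5883 CPM in the 2 h library, 5356 and 5427 CPM at 6 h, and 3937 and 4123 CPM at 24 h. Relative to the 0 h library of the same number, the 24 h sum was 0.602 and 0.690 in UACC62R and 0.70 for both numbers in UACC62P. In each line both 24 h sums were below both 0 h sums. In these bulk libraries, fewer cells in G2 and mitosis and less of each RNA per cell cannot be told apart.

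**Figure D2:**
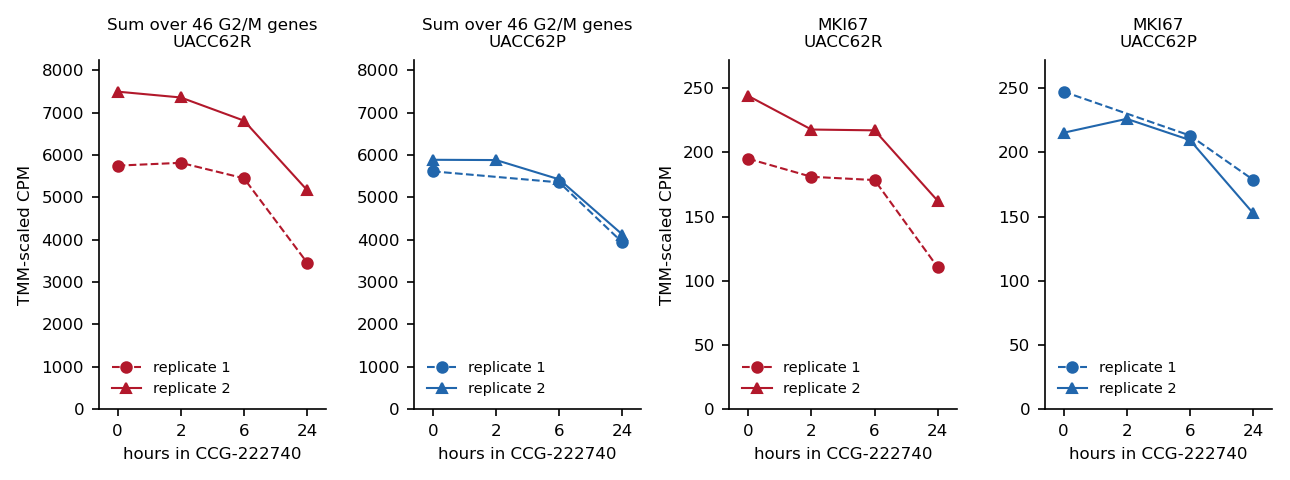
Summed level of the 46 G2/M genes (left pair of panels) and level of MKI67, a proliferation marker that is not a member (right pair), in TMM-scaled CPM against hours in CCG-222740, spaced evenly and not to scale. Circles with dashed lines are replicate 1 and triangles with solid lines replicate 2, with no replicate 1 at 2 h in UACC62P; all 24 h points lie below both 0 h points of their line, and in UACC62R replicate 2 lies above replicate 1 at every time.

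At 24 h, 27 of the 46 members fell in UACC62R by edgeR's quasi-likelihood test, with p adjusted over the whole table by Benjamini-Hochberg and a threshold of 0.05, where 8.23% of all genes fell. In UACC62P 7 of the 46 fell, where 1.65% of all genes fell. No member rose in either line, where 6.48% of all genes rose in UACC62R and 2.19% in UACC62P. The median log2 fold change over the members was -0.61 in UACC62R (range -1.25 to -0.24) and -0.51 in UACC62P (-0.77 to -0.12), against 0.01 and 0.00 over all genes tested. All 46 log2 fold changes were negative in both lines. Same-numbered libraries deviated together, and with the replicate number as a block 44 members fell in UACC62R, where 13.2% of all genes fell, and 43 in UACC62P, where 6.04% did. The members not called with the block were CDC25C and CENPA in UACC62R, and CDC25C, PLK4 and MAD2L1 in UACC62P. With the library labelled UACC62P 2 h replicate 1 back in its group, edgeR called 0 members at 24 h in UACC62R (33 at an unadjusted p under 0.05), where 0.894% of all genes fell, and 0 in UACC62P (24 at an unadjusted p under 0.05), where 0.0465% did. At that unadjusted threshold, 2618 of the 19352 genes tested passed in UACC62R and 1333 in UACC62P, in either direction. DESeq2, run without that library, called 33 in UACC62R, where 13.8% of all genes fell, and 23 in UACC62P, where 4.96% did. The estimated dispersion common to all genes was 0.0622 with it and 0.00985 without it. When single libraries were left out, the UACC62R count was 2 if UACC62R 0 h replicate 2 was missing (4.35% of members, against 3.32% of all genes in that fit), 5 if 24 h replicate 1 was (10.9% against 4.88%) and 44 if 24 h replicate 2 was (95.7% against 8.13%). The UACC62P count was 0 in each fit that lacked 1 of its own 0 h or 24 h libraries, where 0.402 to 0.648% of all genes fell. It was 24 without either UACC62R 24 h library, where 2.33 to 2.34% did.

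Replicates of UACC62R differed in level. There, replicate 2 was higher than replicate 1 for all 46 members at 0, 2, 6 and 24 h, by a median of 0.41, 0.34, 0.34 and 0.64 on the log2 scale, while 49.5 to 52.3% of all genes were higher in replicate 2. In UACC62P replicate 2 was higher for 36, 26 and 36 of 46 members at 0, 6 and 24 h, by medians of 0.09, 0.01 and 0.09. Of all genes in UACC62P, 45.9, 44.9 and 48.2% were higher in replicate 2 at these times. Within a replicate number all 46 members were lower at 24 h than at 0 h, by medians of -0.74 and -0.51 in UACC62R and -0.51 and -0.52 in UACC62P. Across numbers, 24 h and 0 h libraries did not overlap for 35 of 46 members in UACC62R, where 26.8% of all genes were lower with no overlap, and for 46 of 46 in UACC62P, where 23.9% were. The source of the replicate difference was tested in neither line.

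**Figure D3:**
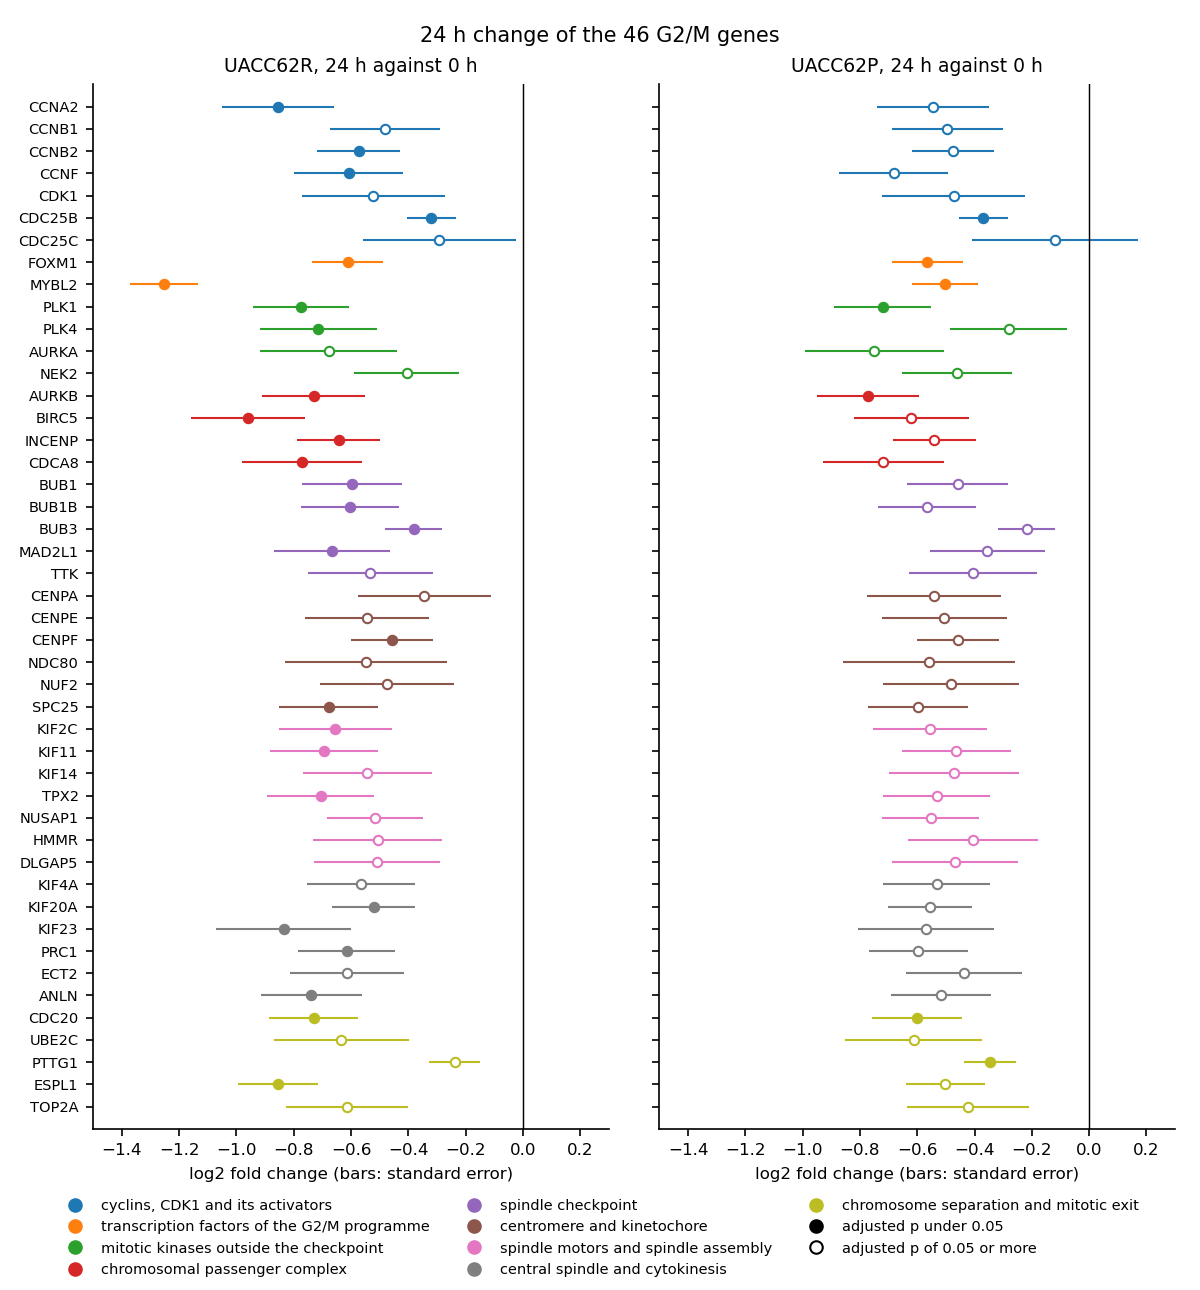
Log2 fold change of each of the 46 G2/M genes at 24 h against 0 h in UACC62R (left) and UACC62P (right), with 2 libraries per group. Bars give the standard error, which draws on the spread over all 15 libraries in the fit. Colours mark roles and filled points the genes with an adjusted p under 0.05 by edgeR without the block; all 46 points lie below 0 in both lines, 27 filled in UACC62R and 7 in UACC62P, and MYBL2 in UACC62R lies farthest left at -1.25.

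The earlier times gave few calls. At 2 h edgeR called 0 members in either line, where 0.0493% of all genes rose and 0.0247% fell in UACC62R and 0.0296% rose and 0.0148% fell in UACC62P; 0 members had an unadjusted p under 0.05, and DESeq2 called 0. At 6 h edgeR called 0 members in UACC62R, where 0.38% of all genes rose and 0.286% fell, and 0 in UACC62P, where 0.848% rose and 0.671% fell. At an unadjusted p under 0.05 there was 1 member at 6 h in UACC62R and 0 in UACC62P, and DESeq2 called 1 and 0. That member at 6 h in UACC62R was CDC25B, which had 172 and 197 CPM at 6 h, below the 220.3 and 235 CPM at 0 h without overlap (-0.30 ± 0.09, adjusted p 0.179 by edgeR and 0.00678 with the block, where 1.06% of all genes fell). The members' median at 6 h was -0.10 in UACC62R, with 42 of 46 negative, and -0.09 in UACC62P, with 37 of 46 negative. Of all genes tested, 50.4% were negative at 6 h in UACC62R and 49.4% in UACC62P.

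Among the cyclins, CDK1 and its activators, 4 of 7 fell at 24 h in UACC62R (CCNA2, CCNB2, CCNF and CDC25B) and 1 of 7 in UACC62P (CDC25B), and 6 of 7 in each line with the block. CCNA2 encodes cyclin A2, which acts in S phase and G2, and had 35.4 and 60.0 CPM at 24 h in UACC62R against 73.3 and 99.3 CPM at 0 h, and 51.8 and 59.5 CPM at 24 h in UACC62P against 78.6 and 83.7 CPM at 0 h. Neither line's groups overlapped, and the log2 fold change was -0.85 ± 0.20 in UACC62R (edgeR adjusted p 0.00938) and -0.54 ± 0.20 in UACC62P (edgeR adjusted p 0.149). Here and elsewhere ± gives the standard error, with 2 libraries per group. It draws on the spread over all 15 libraries in the fit and is not the spread within the groups compared. CCNB1, the cyclin B1 partner of CDK1 at mitotic entry, had 258 and 344 CPM at 0 h, 261 and 331 CPM at 2 h, 240.0 and 332 CPM at 6 h and 169 and 262 CPM at 24 h in UACC62R. In UACC62R its groups overlapped, since replicate 2 at 24 h was above replicate 1 at 0 h, and its log2 fold change of -0.48 ± 0.19 had an edgeR adjusted p of 0.115, and 0.00237 with the block. In UACC62P CCNB1 had 164 and 183 CPM at 24 h against 236 and 254 CPM at 0 h (-0.50 ± 0.19, adjusted p 0.188 by edgeR, 0.00574 with the block), with no overlap. CDK1, the kinase that drives mitotic entry, had 33.7 and 60.0 CPM at 24 h in UACC62R against 52.6 and 82.1 CPM at 0 h, which overlapped, and 47.7 and 58.5 against 69.2 and 78.2 CPM in UACC62P, which did not. Its log2 fold changes were -0.52 ± 0.25 and -0.47 ± 0.25, with edgeR adjusted p-values of 0.192 in UACC62R and 0.347 in UACC62P.

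CDC25B and CDC25C encode phosphatases that activate CDK1 by removing inhibitory phosphates, and CDC25B fell in both lines while CDC25C passed the test in neither. CDC25B had 170.4 and 195 CPM at 24 h in UACC62R against 220.3 and 235 CPM at 0 h, and 189 and 199 CPM at 24 h in UACC62P against 248 and 254 CPM at 0 h. The groups of CDC25B did not overlap in either line, with log2 fold changes of -0.32 ± 0.09 (edgeR adjusted p 0.0218) and -0.37 ± 0.09 (0.0282). In UACC62R its 24 h libraries, at these levels, overlapped its 6 h libraries given above. CDC25C had 11.7 and 21.5 CPM at 24 h in UACC62R against 15.2 and 25.4 CPM at 0 h, with overlap, and 9.10 and 9.05 CPM in UACC62P against 9.56 and 10.2 CPM. Its log2 fold changes of -0.29 ± 0.27 and -0.12 ± 0.29 had edgeR adjusted p-values of 0.534 in UACC62R and 0.889 in UACC62P, and the UACC62R value turned positive, 0.13, without UACC62R 0 h replicate 2, and 0.07 without UACC62R 24 h replicate 1.

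Both transcription factors of the programme fell at 24 h in both lines. MYBL2, which joins the MuvB core to activate late S phase and G2 genes, had 142 and 154 CPM at 0 h, 148 and 164 CPM at 2 h, 140.0 and 148 CPM at 6 h and 52.1 and 72.5 CPM at 24 h in UACC62R. In UACC62P it had 215 and 227 CPM at 0 h, 240.2 in the 2 h library, 210.4 and 220.0 CPM at 6 h and 154 and 159 CPM at 24 h. The 24 h libraries stood apart from all earlier ones in each line, and the log2 fold change was -1.25 ± 0.12 in UACC62R (edgeR adjusted p 1.54e-05) and -0.50 ± 0.12 in UACC62P (0.0273). FOXM1, a forkhead factor that drives G2/M transcription, had 241 and 308 CPM at 0 h, 251 and 304 CPM at 2 h, 236 and 272 CPM at 6 h and 162 and 197 CPM at 24 h in UACC62R. In UACC62P FOXM1 had 204 and 206 CPM at 0 h, 209 in the 2 h library, 185 and 187 CPM at 6 h and 134 and 144 CPM at 24 h. Here too the 24 h libraries lay below all earlier ones, and FOXM1 fell by log2 fold changes of -0.61 ± 0.12 in UACC62R (edgeR adjusted p 0.00464) and -0.56 ± 0.13 in UACC62P (0.0228). ITFG2, which has its own ID in the count tables, lies on the opposite strand across 15.9% of the exon bases of FOXM1. No source used here says whether reads were counted by strand, so how reads in the shared bases were assigned is not known.

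Of the mitotic kinases outside the checkpoint, PLK1 and PLK4 fell at 24 h in UACC62R and PLK1 in UACC62P, and with the block all 4 fell in UACC62R and 3 in UACC62P. PLK1, which acts from centrosome maturation to cytokinesis and whose promoter carries both elements printed above, had 149 and 204 CPM at 24 h in UACC62R against 259 and 344 CPM at 0 h, and 128 and 135 CPM at 24 h in UACC62P against 221 and 212 CPM at 0 h. The groups did not overlap, with log2 fold changes of -0.77 ± 0.17 (edgeR adjusted p 0.00673) in UACC62R and -0.72 ± 0.17 (0.0297) in UACC62P. PLK4, the kinase that starts centriole duplication, had 10.3 and 18.5 CPM at 24 h in UACC62R against 20.6 and 26.7 CPM at 0 h, and 18.4 and 17.7 CPM in UACC62P against 20.6 and 23.3 CPM. It fell by -0.71 ± 0.20 in UACC62R (edgeR adjusted p 0.0306), against a log2 fold change of -0.28 ± 0.20 in UACC62P (0.523). AURKA, Aurora kinase A of the spindle poles, had 79.6 and 127 CPM at 24 h in UACC62R against 129 and 202 CPM at 0 h, and 77.9 and 79.9 CPM in UACC62P against 123 and 142 CPM. Its log2 fold changes, -0.68 ± 0.24 and -0.75 ± 0.24, had edgeR adjusted p-values of 0.0752 in UACC62R and 0.107 in UACC62P, and 0.00107 and 0.00172 with the block. NEK2, a kinase of centrosome separation, had log2 fold changes of -0.40 ± 0.18 in UACC62R and -0.46 ± 0.19 in UACC62P, called in both with the block.

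All 4 genes of the chromosomal passenger complex, which corrects faulty attachments and acts at the central spindle, fell at 24 h in UACC62R, and AURKB fell in UACC62P; with the block all 4 fell in both lines. AURKB, Aurora kinase B, the enzyme of the complex, had 31.3 and 48.7 CPM at 24 h in UACC62R against 58.9 and 73.8 CPM at 0 h, and 49.3 and 46.9 CPM at 24 h in UACC62P against 85.0 and 79.3 CPM at 0 h. Neither pair of groups overlapped, and the log2 fold changes were -0.73 ± 0.18 (edgeR adjusted p 0.0137) in UACC62R and -0.77 ± 0.18 (0.0285) in UACC62P. BIRC5, survivin, which holds the complex at centromeres, had 22.8 and 36.3 CPM at 24 h in UACC62R against 49.2 and 65.9 CPM at 0 h, and 26.3 and 24.4 CPM in UACC62P against 40.2 and 37.8 CPM. It fell by -0.96 ± 0.20 in UACC62R (edgeR adjusted p 0.00487), and its log2 fold change in UACC62P was -0.62 ± 0.20 (0.109). INCENP, the scaffold, had log2 fold changes of -0.64 ± 0.15 in UACC62R and -0.54 ± 0.14 in UACC62P, and CDCA8, borealin, -0.77 ± 0.21 and -0.72 ± 0.21.

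In the spindle checkpoint, which delays anaphase until every kinetochore is attached, BUB1, BUB1B, BUB3 and MAD2L1 fell at 24 h in UACC62R. In UACC62P edgeR called 0 of 5 (3 at an unadjusted p under 0.05, 1 by DESeq2). With the block 5 of 5 fell in UACC62R and 4 of 5 in UACC62P. BUB1, a kinase at the kinetochore, had 66.6 and 105 CPM at 24 h in UACC62R against 112 and 149 CPM at 0 h, and 99.5 and 106 CPM at 24 h in UACC62P against 139 and 144 CPM at 0 h. Its groups did not overlap in either line (-0.60 ± 0.18 in UACC62R, edgeR adjusted p 0.035; -0.46 ± 0.18 in UACC62P, 0.178). BUB3, which brings BUB1 and BUB1B to kinetochores, had 98.0 and 119.6 CPM at 24 h in UACC62R against 133 and 150.1 CPM at 0 h, and 122 and 129 CPM in UACC62P against 141 and 152 CPM. The log2 fold change of BUB3 was -0.38 ± 0.10 in UACC62R (edgeR adjusted p 0.0188) and -0.22 ± 0.10 in UACC62P (0.265). TTK, the MPS1 kinase that starts checkpoint signalling, had 28.9 and 48.2 CPM at 24 h in UACC62R against 49.3 and 62.5 CPM at 0 h, and 30.8 and 35.5 CPM in UACC62P against 42.7 and 45.1 CPM. The groups of TTK did not overlap, and its log2 fold changes of -0.53 ± 0.22 and -0.41 ± 0.22 had edgeR adjusted p-values of 0.125 in UACC62R and 0.366 in UACC62P. BUB1B, the BUBR1 kinase-like inhibitor of the anaphase-promoting complex, had log2 fold changes of -0.60 ± 0.17 and -0.57 ± 0.17, and shares 10.2% of its exon bases with the readthrough gene BUB1B-PAK6. MAD2L1, the MAD2 protein that binds CDC20, had -0.67 ± 0.20 in UACC62R and -0.36 ± 0.20 in UACC62P.

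Of the 6 centromere and kinetochore genes, CENPF and SPC25 fell at 24 h in UACC62R and 0 of 6 were called in UACC62P by edgeR (4 at an unadjusted p under 0.05, 2 by DESeq2); with the block 5 of 6 fell in UACC62R and 6 of 6 in UACC62P. CENPF, a large outer kinetochore protein that accumulates in G2, had 152 and 206 CPM at 24 h in UACC62R against 211 and 279.8 CPM at 0 h, and 193 and 175 CPM at 24 h in UACC62P against 255 and 251 CPM at 0 h. The groups did not overlap, and the log2 fold changes were -0.46 ± 0.14 in UACC62R (edgeR adjusted p 0.0481) and -0.46 ± 0.14 in UACC62P (0.101). SPC25, NDC80 and NUF2 are subunits of the NDC80 complex, the microtubule anchor of the kinetochore. SPC25 had log2 fold changes of -0.68 ± 0.17 in UACC62R and -0.60 ± 0.17 in UACC62P. NDC80 had 26.3 and 52.7 CPM at 24 h in UACC62R against 47.7 and 68.0 CPM at 0 h, and 15.7 and 17.7 CPM in UACC62P against 20.2 and 29.1 CPM. In UACC62R replicate 2 at 24 h exceeded replicate 1 at 0 h, and NDC80 had log2 fold changes of -0.55 ± 0.28 and -0.56 ± 0.30 (edgeR adjusted p 0.228 and 0.358). NUF2 had -0.47 ± 0.23 in UACC62R and -0.48 ± 0.24 in UACC62P, CENPE, a kinetochore motor, -0.54 ± 0.22 and -0.51 ± 0.22, and CENPA, the centromeric histone H3 variant, -0.34 ± 0.23 and -0.54 ± 0.23. CENPA was the only kinetochore member not called in UACC62R with the block (adjusted p 0.0795).

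Among the 7 spindle motor and assembly genes, KIF2C, KIF11 and TPX2 fell at 24 h in UACC62R, and edgeR called 0 of 7 in UACC62P (4 at an unadjusted p under 0.05, 3 by DESeq2), while with the block all 7 fell in both lines. TPX2, which activates Aurora A on spindle microtubules, had 206 and 312 CPM at 24 h in UACC62R against 361 and 484 CPM at 0 h, and 228 and 235 CPM at 24 h in UACC62P against 321 and 348 CPM at 0 h. With no overlap in either line, its log2 fold change was -0.71 ± 0.19 in UACC62R (edgeR adjusted p 0.0202) and -0.53 ± 0.19 in UACC62P (0.139). KIF2C, the MCAK microtubule depolymerase, had 70.4 and 115 CPM at 24 h in UACC62R against 127 and 165 CPM at 0 h, and 76.9 and 85.6 CPM in UACC62P against 120.1 and 119 CPM. It fell by -0.65 ± 0.20 in UACC62R (edgeR adjusted p 0.0394), with a log2 fold change of -0.55 ± 0.20 in UACC62P (0.148). KIF11, the Eg5 motor that separates the spindle poles, had log2 fold changes of -0.70 ± 0.19 and -0.46 ± 0.19. The other members here, KIF14, NUSAP1, HMMR and DLGAP5, were not called by edgeR without the block. Their log2 fold changes in UACC62R were -0.52 for NUSAP1, a microtubule bundler, -0.54 for KIF14, a kinesin of cytokinesis, and -0.51 and -0.51 for the spindle assembly proteins HMMR and DLGAP5. In UACC62P these were -0.55 for NUSAP1, -0.47 for KIF14, -0.41 for HMMR and -0.47 for DLGAP5.

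Of the 6 central spindle and cytokinesis genes, KIF20A, KIF23, PRC1 and ANLN fell at 24 h in UACC62R, and edgeR called 0 of 6 in UACC62P (6 at an unadjusted p under 0.05, 4 by DESeq2). With the block 6 of 6 fell in each line. PRC1, which crosslinks the midzone microtubules and carries TTTGAA close to its start in the sequence above, had 119 and 183 CPM at 24 h in UACC62R against 203 and 260.4 CPM at 0 h, and 122 and 125 CPM at 24 h in UACC62P against 179.8 and 194 CPM at 0 h. The groups did not overlap, and the log2 fold changes were -0.62 ± 0.17 (edgeR adjusted p 0.0261) in UACC62R and -0.60 ± 0.17 (0.0731) in UACC62P. KIF20A, the MKLP2 kinesin that carries the passenger complex to the midzone, had 162 and 236 CPM at 24 h in UACC62R against 265 and 307 CPM at 0 h, and 101 and 102 CPM in UACC62P against 146 and 152 CPM. In both lines the libraries separated, with log2 fold changes of -0.52 ± 0.15 (edgeR adjusted p 0.0267) in UACC62R and -0.56 ± 0.15 (0.052) in UACC62P. ANLN, anillin, the scaffold of the contractile ring, had 225 and 334 CPM at 24 h in UACC62R against 396 and 536 CPM at 0 h, and 219 and 232 CPM in UACC62P against 311 and 334 CPM. It fell by -0.74 ± 0.18 in UACC62R (edgeR adjusted p 0.0114), with a log2 fold change of -0.52 ± 0.18 in UACC62P (0.127). KIF23, the MKLP1 kinesin of the centralspindlin complex, had log2 fold changes of -0.84 ± 0.24 and -0.57 ± 0.24, KIF4A, a chromokinesin of the midzone, -0.56 ± 0.19 and -0.53 ± 0.19, and ECT2, an exchange factor of cytokinesis, -0.62 ± 0.20 and -0.44 ± 0.20.

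Of the 5 genes of chromosome separation and mitotic exit, CDC20 and ESPL1 fell at 24 h in UACC62R, and CDC20 and PTTG1 in UACC62P; with the block 5 of 5 fell in each line. CDC20, the coactivator of the anaphase-promoting complex, had 123 and 182 CPM at 24 h in UACC62R against 227 and 278 CPM at 0 h, and 148 and 159 CPM at 24 h in UACC62P against 227 and 238 CPM at 0 h. Without overlap in either line, CDC20 fell by -0.73 ± 0.16 (edgeR adjusted p 0.00627) in UACC62R and -0.60 ± 0.16 (0.0488) in UACC62P. ESPL1, separase, the protease that cuts cohesin, had 42.3 and 62.0 CPM at 24 h in UACC62R against 87.3 and 101 CPM at 0 h, and 103 and 101 CPM in UACC62P against 149 and 139.9 CPM. It fell by -0.85 ± 0.14 in UACC62R (edgeR adjusted p 0.00105), and its log2 fold change in UACC62P was -0.50 ± 0.14 (0.0593). PTTG1, securin, the inhibitor of separase, had 78.0 and 84.6 CPM at 24 h in UACC62R against 89.7 and 102 CPM at 0 h, and 90.4 and 88.6 CPM in UACC62P against 118 and 109.7 CPM. PTTG1 had the smallest log2 fold change of the set in UACC62R, -0.24 ± 0.09 (edgeR adjusted p 0.0959), and fell by -0.35 ± 0.09 (0.0488) in UACC62P. TOP2A, the topoisomerase that untangles sister chromatids, had 227 and 387 CPM at 24 h in UACC62R against 399 and 541 CPM at 0 h, and 251 and 254 CPM in UACC62P against 329 and 348 CPM. The groups of TOP2A did not overlap, with log2 fold changes of -0.61 ± 0.21 and -0.42 ± 0.21 (edgeR adjusted p 0.0695 and 0.318), and UBE2C, the ubiquitin-conjugating enzyme of the anaphase-promoting complex, had -0.63 ± 0.24 and -0.61 ± 0.24.

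**Figure D4:**
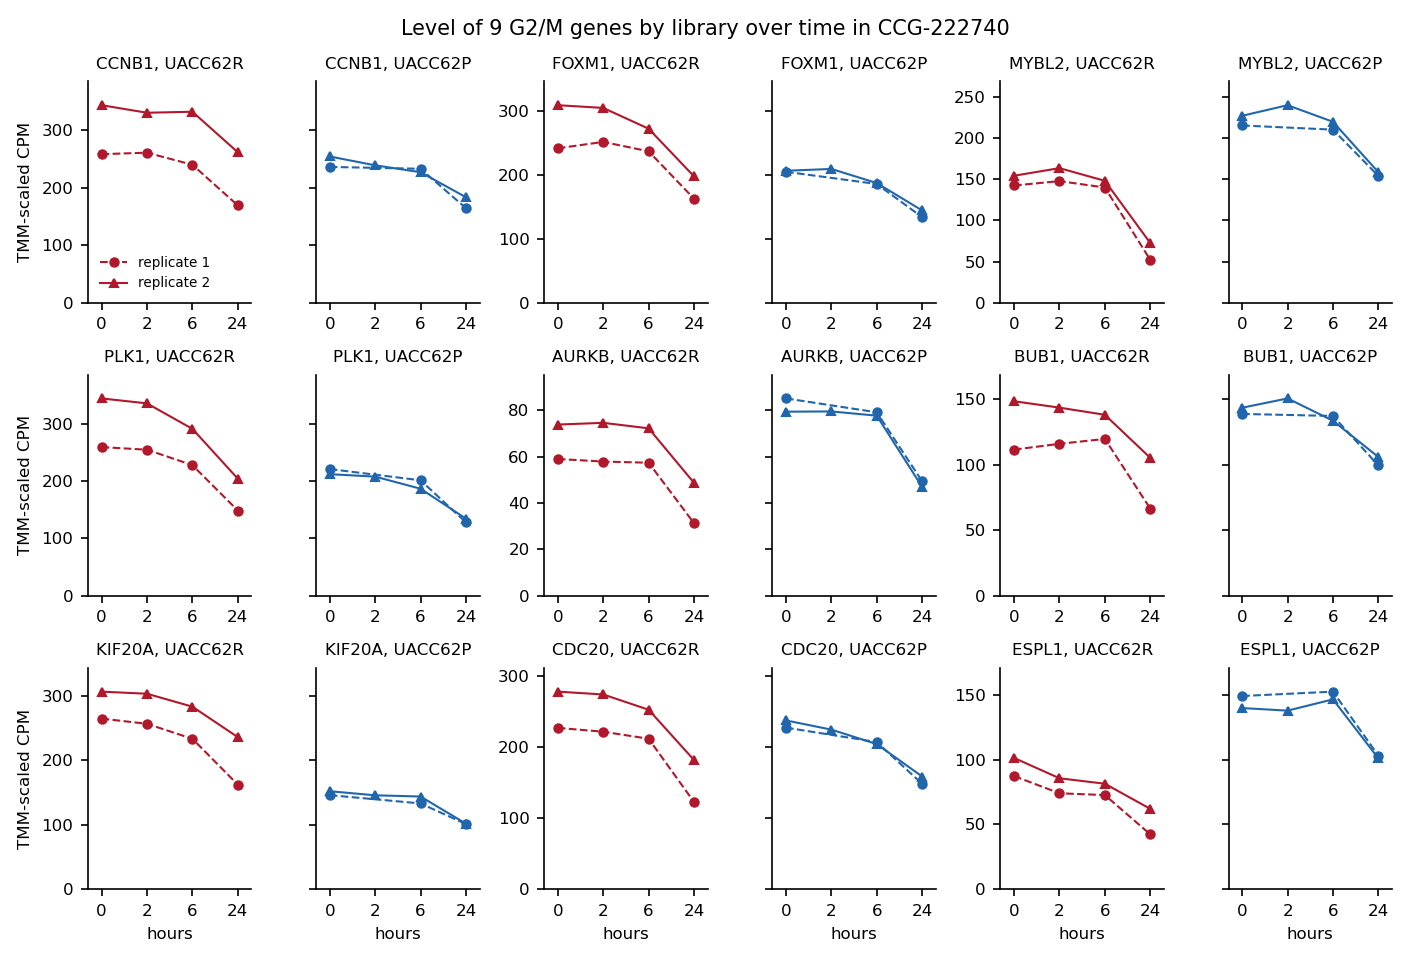
Level in TMM-scaled CPM of 9 members against hours in CCG-222740 (0, 2, 6 and 24 h, spaced evenly and not to scale), with UACC62R (red) left of UACC62P (blue) for each gene and the same vertical scale in both. Circles with dashed lines are replicate 1, triangles with solid lines replicate 2, and UACC62P has no replicate 1 at 2 h; for MYBL2 the 24 h libraries hold 52.1 and 72.5 CPM in UACC62R and 154 and 159 CPM in UACC62P, below all earlier libraries of their line.

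The 24 h libraries were also set against the 6 h libraries. At 24 h, 17 of 46 members were lower than at 6 h in UACC62R by edgeR, where 7.39% of all genes were, and 1 of 46 (PTTG1) in UACC62P, where 0.39% were. No member was higher at 24 h than at 6 h, where 5.18% of all genes were in UACC62R and 0.345% in UACC62P. With the replicate block the counts of lower members were 43 in UACC62R, where 12.2% of all genes were lower, and 30 in UACC62P, where 2.71% were. In 16 libraries edgeR called 0 in UACC62R (26 at an unadjusted p under 0.05), where 0.496% of all genes were lower, and 0 in UACC62P (14 at an unadjusted p under 0.05), where 0% were. At the unadjusted threshold, 2334 of the 19352 genes tested passed in UACC62R and 856 in UACC62P, in either direction. DESeq2 on 15 libraries called 24 in UACC62R and 8 in UACC62P. The UACC62R count is given without a share of all genes in that fit, so it does not show how far the members stood out. Without UACC62R 24 h replicate 1 or without UACC62R 6 h replicate 2 the UACC62R count was 1 (2.17% of members, against 3.89% and 2.98% of all genes in those fits). Without UACC62P 24 h replicate 2 it was 11 (23.9% against 6.5%), and without UACC62R 24 h replicate 2 it was 41 (89.1% against 6.89%). The UACC62P count was 0 in each fit that lacked 1 of its own 6 h or 24 h libraries. It was 5 without either UACC62R 24 h library (10.9% against 0.567 to 0.572% of all genes). All 46 log2 fold changes of 24 h against 6 h were negative in both lines, with medians of -0.50 in UACC62R and -0.42 in UACC62P, against medians over all genes of 0.01 in each line. In UACC62R the 5 called members with the smallest p were MYBL2 (-1.21 ± 0.12, edgeR adjusted p 4.07e-05), PLK4 (-0.88 ± 0.20), ESPL1 (-0.56 ± 0.14), ANLN (-0.70 ± 0.18) and FOXM1 (-0.50 ± 0.12). At 6 h in UACC62R, PLK4 had 24.7 and 28.6 CPM, ESPL1 72.6 and 81.4 CPM and ANLN 399.9 and 510.4 CPM, each above its 24 h libraries without overlap. PTTG1 in UACC62P had 90.4 and 88.6 CPM at 24 h against 128 and 127 CPM at 6 h (-0.51 ± 0.09, edgeR adjusted p 0.0199), and in UACC62R 78.0 and 84.6 CPM against 96.1 and 109.7 CPM (-0.34 ± 0.09, 0.0248). These comparisons share their 24 h libraries with those against 0 h and are not a separate measurement of them. PTTG1 has near-identical copies in the genome, among them PTTG2, so reads that matched several places were not counted for it.

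The lines differed at 0 h for 12 members. NDC80, CDC25C, NEK2, KIF20A, KIF23, BIRC5, ANLN, PLK1 and FOXM1 were higher in UACC62R by edgeR, 9 of 46 where 27.8% of all genes were higher, and ESPL1, MYBL2 and PTTG1 were lower, 3 of 46 where 26.1% of all genes were lower. The members' shares were 19.6% higher and 6.52% lower, both below the shares of all genes in this fit. With the replicate block 19 members were higher, 41.3% where 30% of all genes were, so the order of these shares turned. With the block 5 were lower, 10.9% where 28.6% were. NDC80 had 47.7 and 68.0 CPM in UACC62R against 20.2 and 29.1 CPM in UACC62P at 0 h (1.23 ± 0.29, edgeR adjusted p 0.00233). CDC25C had 15.2 and 25.4 against 9.56 and 10.2 CPM (1.04 ± 0.28, edgeR adjusted p 0.00556), with no overlap in either case. NEK2 had 54.3 and 75.9 against 32.5 and 32.6 CPM in UACC62R and UACC62P (1.00 ± 0.19, edgeR adjusted p 0.000399). These are the members farthest above 0, and KIF20A, at 265 and 307 CPM in UACC62R against 146 and 152 CPM in UACC62P, had the smallest p (0.94 ± 0.15, edgeR adjusted p 7.91e-05). FOXM1 had 241 and 308 CPM in UACC62R against 204 and 206 CPM in UACC62P (0.42 ± 0.12), and PLK1 had a log2 difference of 0.48 ± 0.17. On the other side MYBL2 had 142 and 154 CPM in UACC62R against 215 and 227 CPM in UACC62P (-0.58 ± 0.12, edgeR adjusted p 0.000694). ESPL1 had 87.3 and 101 against 149 and 139.9 CPM (-0.62 ± 0.14, edgeR adjusted p 0.00163). PTTG1 had 89.7 and 102 against 118 and 109.7 CPM (-0.24 ± 0.09, edgeR adjusted p 0.0325). The pair of factors thus stood on opposite sides at 0 h, FOXM1 higher and MYBL2 lower in UACC62R. Without UACC62R 0 h replicate 2 the count of members that differed was 6 (13% of members, against 47.9% of all genes). Without UACC62P 0 h replicate 1 it was 7 (15.2% against 46.9%), and with the left-out library back it was 4, all higher in UACC62R, where 21.5% of all genes were higher and 19% lower. Vemurafenib in the UACC62R cultures and resistance itself cannot be told apart here.

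At 24 h in CCG-222740, 6 members were higher in UACC62R (NDC80, NEK2, KIF20A, CDC25C, PLK1 and FOXM1), where 28.1% of all genes were, and 2 were lower (MYBL2 and ESPL1), where 27% were. With the block 13 were higher, 28.3% where 30.4% of all genes were, and 7 lower, 15.2% where 29.6% were. MYBL2 had 52.1 and 72.5 CPM in UACC62R against 154 and 159 CPM in UACC62P at 24 h (-1.33 ± 0.12, edgeR adjusted p 2.87e-07), and ESPL1 42.3 and 62.0 against 103 and 101 CPM (-0.97 ± 0.14, edgeR adjusted p 3.78e-05). KIF20A had 162 and 236 CPM in UACC62R against 101 and 102 CPM in UACC62P (0.98 ± 0.15, edgeR adjusted p 5.68e-05). NEK2 had 39.2 and 59.1 CPM in UACC62R against 23.7 and 23.6 CPM in UACC62P (1.05 ± 0.19), NDC80 26.3 and 52.7 against 15.7 and 17.7 CPM (1.24 ± 0.30), CDC25C 11.7 and 21.5 against 9.10 and 9.05 CPM (0.87 ± 0.28) and FOXM1 162 and 197 against 134 and 144 CPM (0.37 ± 0.13). Every member higher at 24 h was also higher at 0 h, and the members lower at 24 h were lower at 0 h. Without UACC62R 24 h replicate 1 edgeR called 21 members, 19 higher (41.3%, where 24.8% of all genes were) and 2 lower (4.35%, where 24.3% were). Without UACC62R 24 h replicate 2 it called 14, 2 higher (4.35%, where 25.2% of all genes were) and 12 lower (26.1%, where 25% were). The split by direction thus rested on which of these libraries was kept. Without UACC62P 24 h replicate 1 it called 5 (10.9%, where 47.6% of all genes were called).

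**Figure D5:**
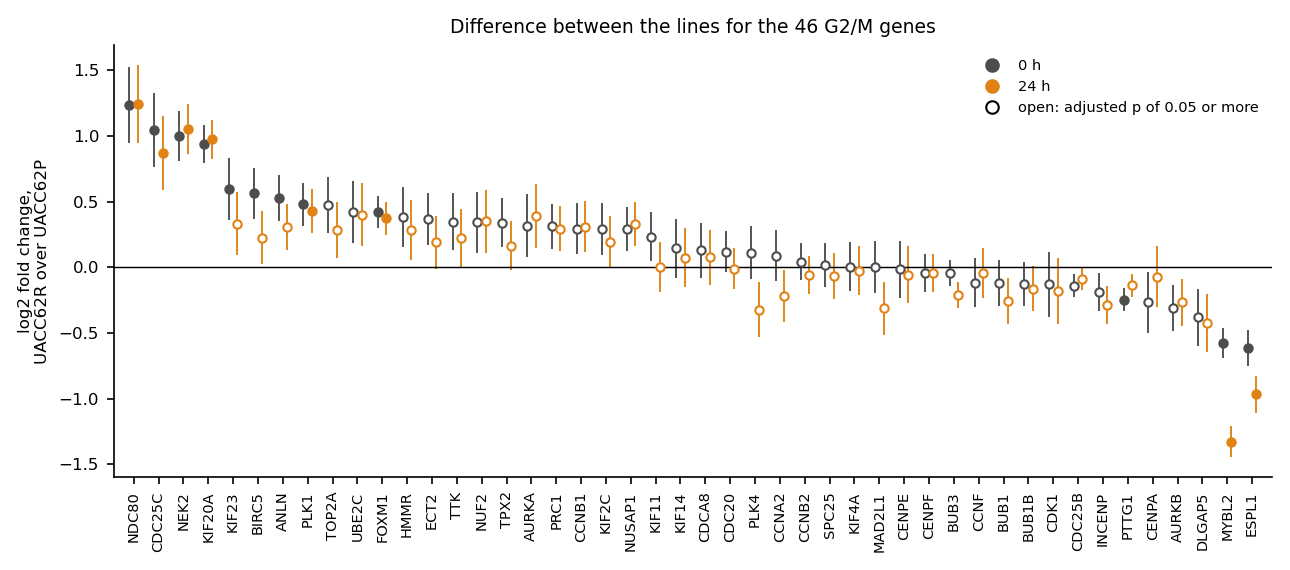
Log2 fold change of UACC62R over UACC62P for each of the 46 G2/M genes at 0 h (grey) and at 24 h in CCG-222740 (orange), in order of the 0 h value, with bars for the standard error. Filled points have an adjusted p under 0.05 by edgeR; NDC80, CDC25C, NEK2 and KIF20A lie highest at both times, and MYBL2 lies at -0.58 at 0 h and -1.33 at 24 h.

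Whether the 24 h change itself differed between the lines was tested as the difference of the log2 fold changes, UACC62R minus UACC62P. edgeR called 0 members, where 0.242% of all genes were higher and 0.321% lower; 1 member had an unadjusted p under 0.05 and DESeq2 called 1. That member was MYBL2, whose log2 fold change was -1.25 in UACC62R and -0.50 in UACC62P, a difference of -0.75 ± 0.16 with an edgeR adjusted p of 0.0649, and 0.000994 with the replicate block, where 2.29% of all genes were lower. The median difference over the 46 members was -0.06, against -0.02 over all genes. The log2 fold change was more negative in UACC62R for 33 of the 46 members and for 52.3% of all genes. Across the members the changes in the lines had a Pearson correlation of 0.471 and a Spearman correlation of 0.532 over 46 genes, which share libraries and are not independent; without MYBL2 the Pearson correlation was 0.562. ESPL1 (-0.35 ± 0.20), PLK4 (-0.43 ± 0.29) and BIRC5 (-0.34 ± 0.28) had the next largest differences towards UACC62R, with edgeR adjusted p-values of 0.554, 0.647 and 0.733. At 6 h edgeR called 0 differences among the members, where 0% of all genes were higher and 0.00493% lower, with 0 at an unadjusted p under 0.05 and 0 by DESeq2. The 28 members with TTTGAA in a promoter window had a median 24 h change of -0.61 in UACC62R and -0.51 in UACC62P. For the 11 members with a window but without it the medians were -0.54 and -0.50. In UACC62R the median was -0.60 for the 32 members with CCAAT and for the 7 without. In UACC62P these medians were -0.485 and -0.517. For an E2F site they were -0.52 in 8 members with it and -0.61 in 31 without in UACC62R. In UACC62P they were -0.45 and -0.51. With and without each motif the ranges overlapped, and these splits were not tested.

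Other genes of cell division, listed by function, were set beside the members, first without and then with the replicate block. Of 14 condensin and cohesin genes, 10 fell at 24 h in UACC62R and 1 in UACC62P by edgeR, with medians of -0.53 and -0.31, among them SMC1A (-0.52 ± 0.10), a cohesin core subunit, and NCAPH (-0.78 ± 0.17), a condensin I subunit that also fell in UACC62P (-0.65 ± 0.16). Of 17 further kinetochore genes, 9 fell in UACC62R and 0 were called in UACC62P (6 at an unadjusted p under 0.05, 2 by DESeq2), with medians of -0.62 and -0.37. SPC24 (-0.74 ± 0.18), another subunit of the NDC80 complex, was among those that fell. With the block, 13 of the condensin and cohesin genes fell in UACC62R and 7 in UACC62P, and 13 and 6 of the kinetochore genes. Of 14 further spindle and motor genes, 7 fell in UACC62R and 0 were called in UACC62P (8 at an unadjusted p under 0.05, 4 by DESeq2), with medians of -0.54 and -0.42. With the block 13 fell in UACC62R and 8 in UACC62P. Of 13 genes of the anaphase-promoting complex and its inhibitors, 1 fell in UACC62R, FBXO5 (-0.75 ± 0.16), the EMI1 inhibitor, with medians of -0.17 in UACC62R and -0.04 in UACC62P. In UACC62P edgeR called 0 of the 13 (1 at an unadjusted p under 0.05, 0 by DESeq2). With the block 4 fell in UACC62R and 2 in UACC62P. Of 9 genes of the G2 checkpoint, 5 fell and 1 rose in UACC62R, with CLSPN (-1.42 ± 0.18), PKMYT1 (-0.95 ± 0.14), CDC25A (-1.13 ± 0.19) and WEE1 (-0.55 ± 0.12) among those that fell and ATM (0.31 ± 0.09) the gene that rose. In UACC62P edgeR called 0 of the 9 (6 at an unadjusted p under 0.05, 3 by DESeq2). With the block 6 fell in UACC62R and 4 in UACC62P. Of 10 genes of the MuvB core, DREAM and pocket proteins, TFDP1 (-0.56 ± 0.09), RBL1 (-0.68 ± 0.13) and E2F4 (-0.29 ± 0.07) fell and RBL2 (0.33 ± 0.07) rose in UACC62R, and TFDP1 (-0.41 ± 0.09) fell in UACC62P. With the block 4 of these 10 fell and 1 rose in UACC62R, and 3 fell in UACC62P.

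Genes of the preceding phase had a lower median than the members in UACC62R and a higher one in UACC62P. Of 24 G1/S and replication genes, 22 fell at 24 h in UACC62R and 5 in UACC62P, with medians of -0.79 and -0.35, against -0.61 and -0.51 for the members. With the block 24 fell in UACC62R and 16 in UACC62P. Of the same 24, MCM2, MCM3 and MCM6 fell more in UACC62R than in UACC62P by the test of the difference, MCM6 by -0.84 ± 0.11 (edgeR adjusted p 0.00614), and with the block 15 of the 24 did. Of 13 CDK inhibitors and p53 arrest genes with enough reads, CDKN1B, the p27 inhibitor of cyclin-CDK complexes, rose in UACC62R (0.30 ± 0.08, edgeR adjusted p 0.024), and GADD45A fell (-0.43 ± 0.10, 0.0129). In UACC62P edgeR called 0 of the 13 (3 at an unadjusted p under 0.05, 2 by DESeq2). With the block 3 rose and 1 fell in UACC62R, and 2 rose and 1 fell in UACC62P. MKI67, which encodes the Ki-67 proliferation antigen, had 110.5 and 162 CPM at 24 h in UACC62R against 195 and 244 CPM at 0 h, and 179 and 153 CPM at 24 h in UACC62P against 247 and 215 CPM at 0 h. The groups did not overlap in either line, with log2 fold changes of -0.69 ± 0.17 in UACC62R (edgeR adjusted p 0.0121) and -0.48 ± 0.16 in UACC62P (0.128, and 0.0233 with the block).

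Some member counts can hold reads of other genes or miss their own. On the strand of the gene, PRC1 and NUSAP1 overlap annotated genes that have no ID in the count tables, and CENPA shares 6.96% of its exon bases with SLC35F6. On the opposite strand, AC008870.3 covers 11.6% of the exon bases of PLK1, EXOSC9 9.08% of CCNA2 and FAM53C 8.78% of CDC25C. AURKA, AURKB, BUB1, BUB3, CCNB2, CDC20, DLGAP5, MAD2L1, NEK2 and UBE2C have named pseudogenes. No gene was credited with reads that matched several places, and such alignments made up 18.6 to 22.0% of all entries per library.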

How the data were processed

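Messenger RNA libraries of UACC62R and UACC62P were made with a stranded kit and read as single reads of 50 bp, per the labels' protocols. For each library the authors deposited a table of raw read counts over 63677 Ensembl gene IDs. Library sizes and tests used the gene lines without the 5 summary lines. The summary lines held 18.6 to 22.0% of all entries for alignments to several places and 6.12 to 17.8% for reads not aligned. Whether a read with several alignments was entered once is not stated, so these are shares of entries and not of reads. Of uniquely aligned reads, 5.99 to 6.81% were ambiguous between genes and 3.31 to 4.66% fell in no gene. Per the submitters' processing notes, the tools are HISAT2 2.1.0, HTSeq 0.6.1, Trimmomatic 0.33, FastQC 0.11.5 and bcl2fastq 2.19.0, and the build is hg19. Whether counting used the strand is stated nowhere in these sources.

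A name table held a symbol for 52181 of the IDs. By the rule that defines the gene set, the library labelled UACC62P 2 h replicate 1 was left out. The other 15 libraries were scaled by TMM, filtered by filterByExpr and fitted in edgeR 4.0.16 (limma 3.58.1, under R 4.3.3) with 8 group means and 7 residual degrees of freedom. The lone UACC62P 2 h library was taken to vary as the other groups do. Quasi-likelihood F tests were adjusted by Benjamini-Hochberg across the 20280 genes tested, with 0.05 as threshold. Each standard error is the absolute log2 fold change over the root of F. The code was tested on simulated data. CPM values are TMM-scaled within the 15 libraries, or within all 16 where the left-out library is set beside others.

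The 46 members and all lists were chosen with earlier results of these data known. Any member could be named. Values per library were given for a listed choice of members and for the 5 called members with the smallest p in each direction of a comparison; of other lists, up to 4 called genes with the smallest p were named. The pairing of libraries comes from the data and not from the labels: for all 21 pairs of groups, deviations from group means in libraries with the same number were correlated, at 0.174 to 0.718 (8273 genes whose mean log2 CPM was above 4). Alternatives were the 16 libraries, the replicate block, DESeq2 1.42.0, library size without TMM, no filter, a mean CPM of at least 1, and leaving out each library. Promoter windows are from RefSeq on GRCh38.p14. Overlaps of genes were read from an annotation of another build than the counts, so no coordinate was carried to hg19.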

Additional observations from a re-analysis of the deposited data

Results flagged for a closer look

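The library labelled UACC62P 2 h replicate 1 was kept out of every comparison of the members. Of the 9 members that edgeR called higher in UACC62R than in UACC62P at 0 h, 7 lay above all 7 other UACC62P libraries in it, the exceptions being FOXM1 and PLK1. Of all 12 members that differed between the lines at 0 h, 10 lay nearer to UACC62R. Likeness to UACC62R was the reason for leaving this library out, so these counts only describe it. They were made over the members, with no share of all genes beside them. Its summed level over the 46 members, 5863 CPM, lay between the 5577 and 5974 CPM of the UACC62P 0 h libraries scaled with it.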

How the results depend on the processing

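The direction of the 24 h change was negative for all 46 members in UACC62P under every alternative run, and for 45 or 46 in UACC62R. The exception was CDC25C, whose value ran from -0.80 without UACC62R 24 h replicate 2 to 0.13 without UACC62R 0 h replicate 2, and was 0.07 without UACC62R 24 h replicate 1. Counts of called members depended on the settings. With the replicate block, members called were 44 at 24 h against 0 h in UACC62R and 43 in UACC62P, and 43 and 30 at 24 h against 6 h. With it they were 1 at 6 h in UACC62R, 24 between the lines at 0 h, 20 at 24 h and 1 for the difference of the 24 h response. The block changed no other call count of a comparison. In 16 libraries they were 0 and 0 at 24 h against 0 h, 0 and 0 at 24 h against 6 h, and 4 between the lines at 0 h. DESeq2 called 23 at 24 h (50% of members, against 4.96% of all genes lower in the same fit) and 8 at 24 h against 6 h (17.4% against 1.9%) in UACC62P. It called 1 at 6 h in UACC62R (2.17% against 0.909%) and 1 for the difference of the 24 h response (2.17% against 1.99%). With no filter on low counts, which brought the genes tested to 35573, edgeR called 43 at 24 h in each line (93.5%, against 5.18% of all genes lower in UACC62R and 2.07% in UACC62P), 43 in UACC62R (93.5% against 4.97%) and 38 in UACC62P (82.6% against 1.21%) at 24 h against 6 h, and 1 at 6 h in UACC62R (2.17% against 0.503%). It called 26 between the lines at 0 h (56.5%, against 30.7% of all genes in either direction), 21 at 24 h (45.7% against 31.4%) and 1 for the difference of the 24 h response (2.17% against 0.871%). Without TMM it called 10 at 24 h against 6 h in UACC62R (21.7% against 5.91%). The cause of these shifts was not tested. Leaving out 1 library at a time gave 2 to 44 members at 24 h in UACC62R, 0 to 24 in UACC62P, 1 to 41 and 0 to 5 at 24 h against 6 h in UACC62R and UACC62P, 6 to 15 between the lines at 0 h, 5 to 21 at 24 h and 0 to 1 for the difference of the 24 h response, and 0 at 2 and 6 h. TTTGAA was present in 45.1% of member promoters, against 13.32% of all, when only the 250 bases before the start were searched. A group that kept 1 library after leaving out the other was assumed to vary like the rest. Every member had at least 256 reads in every library.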
